A study of Mus musculus with 18 samples.

Results

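Libraries of cortical endothelium labelled as deleted for the deacetylase gene Hdac2 were compared directly with libraries labelled as deleted for the histone methyltransferase gene Ezh2, from mice that had all undergone the same stroke surgery. The comparison used 6 of the 18 libraries in the series, chosen by title: 3 labelled as Hdac2 deletion and 3 labelled as Ezh2 deletion, with no other group in the fit. In both groups the middle cerebral artery had been occluded (MCAO, a surgical model of ischaemic stroke), and cells came from the cortex on the injured (ipsilateral) side. The first group carried Hdac2 lox/lox alleles and the second Ezh2 lox/lox alleles. Each also carried Cdh5CreERT2, a tamoxifen-inducible recombinase driven by the promoter of the endothelial cadherin gene Cdh5, so deletion is limited to cells in which that promoter is active (ECKO, endothelial cell knockout). Both received tamoxifen at 75 mg per kg, 5 doses in all, and brains were taken on day 7 after the occlusion. No library in the comparison came from a mouse without tamoxifen, recombinase or occlusion, so effects of these that were equal in both groups cancel out. Whether they were equal cannot be checked with these libraries. Any difference in handling between the groups cannot be told apart from the genotype. The mice were adult, and no exact age was given in the labels. Endothelial cells were sorted by surface CD31, without CD41 or CD45, a gate meant to leave out platelets and leukocytes. The labels do not say whether the 3 libraries of a group came from separate mice, so the p-values below measure only the spread between these libraries.

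Hdac2 is a class I histone deacetylase that works inside corepressor complexes such as Sin3, NuRD and CoREST and removes acetyl groups that accompany active transcription. Ezh2 is the catalytic subunit of Polycomb repressive complex 2 (PRC2), which methylates lysine 27 of histone H3 at silent developmental genes. Both are repressors that act by different chemistry. Brain endothelium forms the blood-brain barrier, holds its character through Wnt and beta-catenin signalling, and responds to ischaemia with inflammatory, heat shock and immediate early genes.

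The libraries held 31008561 to 45186120 counts under the Hdac2 ECKO label and 26343356 to 38055895 under the Ezh2 ECKO label. Levels are given as CPM, the counts of a gene per 1000000 of the TMM-scaled library total, and log2 differences are Hdac2 ECKO minus Ezh2 ECKO. Summed levels of 13 endothelial markers (among them Pecam1, Cdh5 and Cldn5) were 13733 to 17012 CPM and 12753 to 13909 CPM. In no library did the markers of leukocytes, neurons, fibroblasts, microglia or smooth muscle sum to more than 28.3 CPM, and those of pericytes, astrocytes, oligodendrocyte lineage and platelets stayed at or under 149 CPM. The groups overlapped in the sums of all 10 of these lists, and red cell markers, which did not overlap, are described below. With 3 libraries against 3 no exact permutation test of such a sum can go below 0.1, so the overlap does not show that cell makeup was the same. Each sum took only a fixed set of markers. On longer lists, the neuron gene Stmn2 stood at 119, 168 and 156 CPM against 43.9, 60.9 and 75.5 CPM. The astrocyte gene Clu stood at 16.0, 27.7 and 55.0 CPM against 5.55, 3.395 and 12.4 CPM. Neither overlapped (adjusted p-values 0.294 and 0.429 in edgeR's quasi-likelihood test). Of the genes tested on these lists, 4 of 6 neuron and 3 of 5 astrocyte genes had a log2 difference below 0.

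The deleted genes were examined first. Hdac2 (chromosome 10, 36974544 to 37001889, plus strand, GRCm38) stood at 52.9, 80.5 and 82.2 CPM where the label is Hdac2 ECKO and at 132, 167 and 116 CPM where it is Ezh2 ECKO. The groups did not overlap, and they differed by a log2 value of −0.94 ± 0.34 (SE; adjusted p-value 0.504 in edgeR's quasi-likelihood test), so the gene was not called. Ezh2 (chromosome 6, 47530139 to 47595341, minus strand) stood at 4.32, 18.2 and 0.825 CPM with Hdac2 deletion on the label, against 11.3, 20.98 and 8.25 CPM with Ezh2 deletion. These groups overlapped, and the difference was −0.80 ± 0.99 (adjusted p-value 0.846), with the higher mean in the libraries that carry the Ezh2 deletion label. The counts cover whole genes, so a transcript missing just the floxed exons still adds to them. For Ezh2 the level therefore did not back the label, and every direction below rests on the labels alone. With all 18 libraries scaled together, Hdac2 was at 57.6 to 87.9 CPM in Hdac2 ECKO and 118 to 156 CPM in Ezh2 ECKO libraries. In the other 12 libraries of the series it was at 61.9 to 132 CPM (median 88.5). Ezh2 was at 8.41 to 19.7 CPM in Ezh2 ECKO libraries and 1.48 to 17.7 CPM in the 12. Each labelled group thus reached into the range of the 12 for its own gene. Among tested genes within 5 Mb of Hdac2, 0 of 37 had a p-value under 0.05 before adjustment. Around Ezh2 it was 5 of 51, or 9.80%, beside 7.92% of all genes tested.

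Of 13885 genes tested, 14 were called at an adjusted p-value under 0.05, all higher in the libraries labelled Hdac2 ECKO (0.101%), and 0 were lower (0.0%). Those described here are 4 globin genes, the heat shock genes Hspa1a and Hspa1b with the overlapping Gm20481, the arterial gene Gkn3, the tetraspanin gene Cd9, the interferon-induced gene Bst2, the gamma-synuclein gene Sncg and the predicted gene Gm10260. In all 14 the groups did not overlap, as was also the case for 7.21% of all tested genes in this direction and 6.55% in the other. Genes whose unadjusted p-value was under 0.05 are called nominal below; in edgeR's test 639 were nominally higher (4.6%) and 461 nominally lower (3.32%). DESeq2 called 219 higher and 90 lower, and voom with sample weights called 8 higher and 0 lower.

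Which of the 14 genes passed the threshold depended on single libraries and on which genes were tested. A fit without 1 library also has fewer libraries to estimate the spread. In those fits the log2 difference of Cd9 ran from 2.08 to 2.22, Gkn3 from 2.09 to 2.77 and Hspa1a from 2.64 to 3.49. That of Hspa1b ran from 2.87 to 3.73, Gm20481 from 3.24 to 4.14 and Gm10260 from 3.65 to 4.61. For Bst2 it ran from 2.48 to 3.21 and for Sncg from 2.30 to 2.94. Without Ezh2 ECKO replicate 2 there were 0 calls (smallest adjusted p-value 0.0611, 953 nominal genes), and without Ezh2 ECKO replicate 3 there was 1, Lrrn3, which was not among the 14. Without Ezh2 ECKO replicate 1 there were 8 calls, 7 of them shared. Without Hdac2 ECKO replicates 1, 2 and 3 there were 7, 4 and 21 calls, of which 7, 4 and 13 were shared, and the 4 were the globin genes. When globin genes were left out of the library totals but still tested, the same 14 genes were called. When globin genes were not tested at all, 0 of 13881 genes were called, with a smallest adjusted p-value of 0.0554 and 1099 nominal genes. The log2 differences of the other 10 genes moved by at most 0.0010 in that fit. The Benjamini-Hochberg adjustment had counted the 4 smallest p-values among the globin genes.

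**Figure D1:**
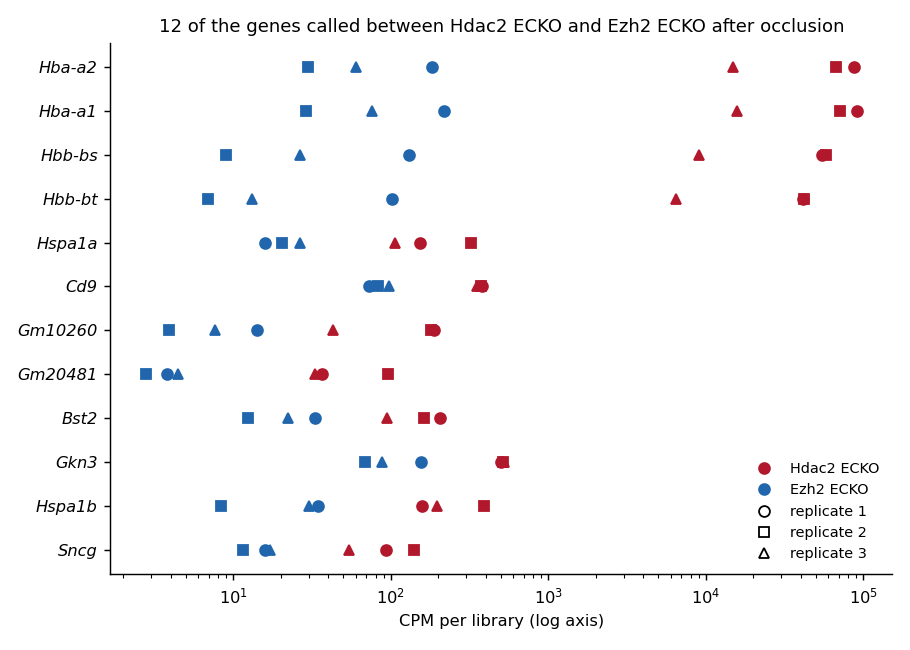
Level of 12 of the 14 called genes in the 6 libraries, in CPM on a log axis, with Hdac2 ECKO in red, Ezh2 ECKO in blue and a symbol for each replicate number. In each row every red symbol lies to the right of every blue one, and the gap is widest for the globin genes.

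**Figure D2:**
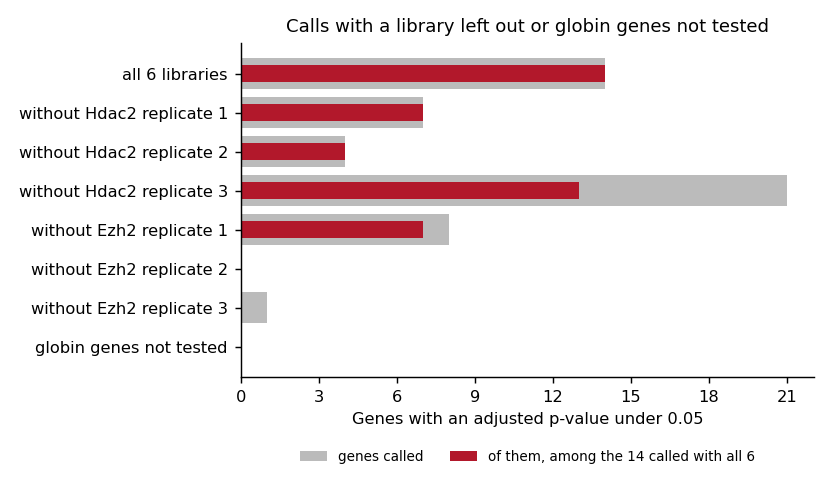
Number of genes with an adjusted p-value under 0.05 with all 6 libraries, with each library left out, and with globin genes not tested (grey bars), and how many of them were among the 14 (red bars). The count ran from 0 without Ezh2 ECKO replicate 2 to 21 without Hdac2 ECKO replicate 3.

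The largest differences were in genes of the red cell. Hba-a1 and Hba-a2 encode the alpha chain and Hbb-bs and Hbb-bt the beta chain of adult haemoglobin. Together they took 19.9%, 19.5% and 5.41% of the counts in the libraries labelled Hdac2 ECKO, and 0.0653%, 0.00932% and 0.0192% in those labelled Ezh2 ECKO. The lowest Hdac2 ECKO library was far above the highest Ezh2 ECKO library, and within Hdac2 ECKO replicate 3 stood below replicates 1 and 2. The means were 15.0% ± 8.28 and 0.0313% ± 0.0299 (SD, n = 3 each), with a two-sided exact permutation p of 0.1, the smallest that 3 against 3 libraries allow, and 0.4 after adjustment over 8 library measures. Without the globin counts the totals were 29332444 to 36172223 and 26340900 to 38031029 (exact permutation p 0.9). In bulk libraries, more cells of a type and more RNA per cell cannot be told apart.

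**Figure D3:**
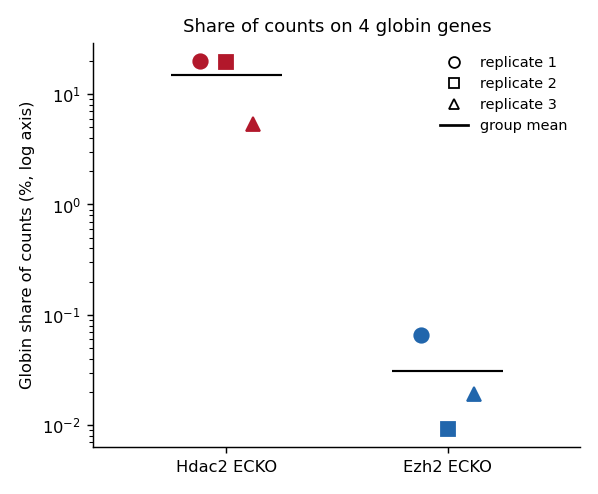
Share of counts on the 4 globin genes in each library, in percent on a log axis, with a symbol for each replicate number and a line at the group mean. Libraries labelled Hdac2 ECKO lie between 5.41% and 19.9%, and those labelled Ezh2 ECKO between 0.00932% and 0.0653%.

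Hba-a2 (chromosome 11, 32296489 to 32297298, plus strand) stood at 86934, 67427 and 14867 CPM against 181, 29.7 and 59.8 CPM, a log2 difference of 9.29 ± 1.06 (SE, adjusted p-value 0.00747). Hba-a1 (chromosome 11, 32283511 to 32284465, plus strand) stood at 90986, 70546 and 15653 CPM against 219, 28.9 and 76.1 CPM, or 9.10 ± 1.08 (0.00747). Hbb-bs (chromosome 7, 103826534 to 103828096, minus strand) stood at 54586, 57778 and 9099 CPM against 131, 8.97 and 26.4 CPM, or 9.51 ± 1.24 (0.0139). In each of these genes Hdac2 ECKO replicate 3 was the lowest of its group and Ezh2 ECKO replicate 1 the highest of its own. Hbb-bt (chromosome 7, 103812524 to 103813996, minus strand) followed the same order, with 41411, 42250 and 6454 CPM against 102, 6.88 and 13.2 CPM, or 9.53 ± 1.28 (0.0146). The genes of a pair share sequence. Of all windows of 75 bases in the longest protein-coding transcript (GENCODE M21), 81.0% of those of Hba-a2 also occur in Hba-a1 and 56.6% of those of Hbb-bt in Hbb-bs, so how reads split within a pair is uncertain and their sum less so.

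Of 22 other red cell genes in the table, 13 were tested. Alas2, the rate-limiting enzyme of haem synthesis in red cell precursors, was not called, with 6.02, 9.18 and 12.1 CPM against 0.357, 0.273 and 0 CPM (adjusted p-value 0.296). Slc4a1, the red cell anion exchanger, was at 2.86, 0.855 and 0.330 CPM against 0, 0.394 and 0.0548 CPM and overlapped. Mkrn1, a ubiquitin ligase gene abundant in red cell precursors, was at 109, 149 and 69.5 CPM against 37.3, 42.0 and 41.3 CPM, without overlap (adjusted p-value 0.282). Fech, which completes haem synthesis in every cell, was at 13.7, 22.6 and 8.22 CPM against 30.5, 35.2 and 38.6 CPM, the other direction. Over the 13 genes the median log2 difference was 0.19, beside −0.11 for all genes tested, and with library totals in place of TMM scaling it was −0.15, beside −0.43. It was 1.06, 1.04 and 0.91 without Ezh2 ECKO replicates 1, 2 and 3, and 0.0033 and 0.52 without Hdac2 ECKO replicates 2 and 3. These red cell genes were chosen after their values were seen. From the other gene lists the 2 genes of smallest unadjusted p-value were selected by rule, but not all of those are described below. Further members given were chosen after their values were seen.

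Heat shock genes gave the next calls. Hspa1a and Hspa1b encode near-identical inducible Hsp70 chaperones, which bind unfolded proteins and are switched on by heat shock factor through short elements in their promoters. The 250 bases before each start are shown because both genes were called together. They come from RefSeq (GRCm38.p6), read 5′ to 3′ on the minus strand, at chr17:34972157-34972406 for Hspa1a and chr17:34959239-34959488 for Hspa1b, with the heat shock element GAANNTTC, which reads the same on both strands, in capitals.
Hspa1a: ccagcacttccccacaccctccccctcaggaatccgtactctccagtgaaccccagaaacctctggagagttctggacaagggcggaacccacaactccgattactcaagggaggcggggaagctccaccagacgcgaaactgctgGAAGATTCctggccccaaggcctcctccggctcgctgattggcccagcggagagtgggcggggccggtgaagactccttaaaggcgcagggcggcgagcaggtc
Hspa1b: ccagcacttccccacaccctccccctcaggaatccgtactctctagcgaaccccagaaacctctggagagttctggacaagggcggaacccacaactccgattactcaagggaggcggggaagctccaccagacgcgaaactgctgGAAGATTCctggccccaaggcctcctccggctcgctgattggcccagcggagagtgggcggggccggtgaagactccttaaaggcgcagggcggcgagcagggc
The promoters were identical at 247 of 250 positions, and each held 1 match, from 104 to 97 bases before the start. The element was found in 6.78% of 27025 promoter windows of this length. Of the 10 called genes with a promoter in that table it was found in 3, these and Bst2. A match is a run of letters and not a measured binding site.

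Hspa1a (chromosome 17, 34969190 to 34972156, minus strand) stood at 153, 325 and 107 CPM against 15.9, 20.2 and 26.3 CPM, a log2 difference of 3.23 ± 0.46 (SE, adjusted p-value 0.0229). Hspa1b (chromosome 17, 34956436 to 34959238, minus strand) stood at 158, 389 and 196 CPM against 34.4, 8.40 and 30.01 CPM, or 3.35 ± 0.54 (0.0387). Hdac2 ECKO replicate 2 was the highest library for both. Gm20481 (chromosome 17, 34969912 to 34972136, plus strand) lies within Hspa1a on the opposite strand and stood at 36.4, 95.3 and 32.9 CPM against 3.77, 2.79 and 4.47 CPM, or 3.90 ± 0.61 (0.0377). The strand setting of the counting was not given in the sources used here, 86.1% of the 75-base windows of Gm20481 occur in Hspa1a transcripts, and 55.8% of those of Hspa1b do, so these 3 calls may share reads and their levels are uncertain one by one.

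All 18 heat shock genes on the list were tested, 2 were called, and 7 were nominally different, all higher under the Hdac2 ECKO label, beside 4.6% of all genes. The median log2 difference of the list was 0.72, beside −0.11 for all genes. Of those not called, Hspb1, a small chaperone that guards the cytoskeleton, stood at 549, 541 and 211 CPM against 159, 86.1 and 113 CPM, without overlap (adjusted p-value 0.204). Hsp90aa1, the inducible Hsp90, stood at 380, 454 and 702 CPM against 258, 242 and 264 CPM (0.457). Hspa8, the constitutive Hsp70, stood at 739, 910 and 1206 CPM against 695, 490 and 512 CPM (0.628). Hsf1, the factor that drives the response, overlapped at 4.50, 13.9 and 3.63 CPM against 9.48, 2.12 and 16.9 CPM. Hspe1, Hspd1, Hsph1, Dnaja1, Dnajb1 and Bag3 also overlapped between the groups.

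Gkn3, Cd9 and Sncg were the called genes with the most even levels or the smallest differences. Gkn3 (chromosome 6, 87383256 to 87388935, minus strand), a gastrokine gene known in brain as an arterial endothelial marker, stood at 497, 516 and 525 CPM against 156, 68.7 and 87.7 CPM, a log2 difference of 2.30 ± 0.37 (SE, adjusted p-value 0.0387). Cd9 (chromosome 6, 125460266 to 125494791, minus strand), a tetraspanin of endothelial and platelet membranes, stood at 378, 375 and 352 CPM against 72.6, 83.2 and 97.9 CPM, or 2.12 ± 0.32 (0.0314). Within each group the Cd9 levels lay close together. Summed platelet markers (Pf4, Ppbp, Itga2b and Gp9) were at 75.0, 42.7 and 7.504 CPM against 27.9, 18.3 and 18.3 CPM and overlapped, and their part in the Cd9 difference was not tested. Sncg (chromosome 14, 34370274 to 34374789, minus strand), which encodes gamma-synuclein, stood at 92.9, 140 and 54.0 CPM against 16.0, 11.5 and 17.2 CPM, or 2.68 ± 0.45 (0.0457).

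Bst2 and Gm10260 completed the calls. Bst2 (chromosome 8, 71534255 to 71537456, minus strand) encodes tetherin, an interferon-induced membrane protein that holds enveloped virus particles at the cell surface. It stood at 206, 161 and 93.8 CPM against 33.2, 12.4 and 22.1 CPM, a log2 difference of 2.77 ± 0.46 (SE, adjusted p-value 0.0387). Its promoter is shown because it was the only called gene of the interferon list. The 250 bases before its start (RefSeq, GRCm38.p6, chr8:71537473-71537722, minus strand) hold 2 overlapping matches to the interferon-response repeat, GAAA followed by GAAA with any 2 bases between, searched on both strands and given in capitals, from 130 to 121 and from 124 to 115 bases before the start.
Bst2: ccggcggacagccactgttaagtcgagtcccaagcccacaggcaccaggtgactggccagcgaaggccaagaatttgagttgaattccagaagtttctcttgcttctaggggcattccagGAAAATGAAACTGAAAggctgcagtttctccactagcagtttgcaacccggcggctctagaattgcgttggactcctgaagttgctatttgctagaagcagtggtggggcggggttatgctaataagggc
The repeat was found in 3.04% of promoter windows, and among the 10 called genes with one it was found in Bst2 only. Gm10260 (chromosome 13, 97760072 to 97760632, minus strand), a predicted gene, stood at 188, 179 and 42.7 CPM against 14.1, 3.88 and 7.62 CPM, or 4.00 ± 0.63 (0.0377). Since 96.3% of its 75-base windows occur in another predicted gene, Gm26619, its reads cannot be placed with certainty.

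All 29 genes of interferon response and class I antigen presentation were tested, and 1 was called (Bst2), beside 0.101% of all genes. Of the 29, 7 were nominally higher and 0 nominally lower, beside 4.6% and 3.32% of all genes. The log2 difference was above 0 in 23 of the 29, beside 45.2% of all genes. The list median was 0.27, and it was 0.61 without Ezh2 ECKO replicate 1, 0.16 without Ezh2 ECKO replicate 2 and 0.46 without Hdac2 ECKO replicate 2. With library totals in place of TMM scaling it was −0.02, while the median of all genes moved from −0.11 to −0.43. Irf1, a transcription factor of the interferon response, stood at 60.2, 74.5 and 96.8 CPM against 25.2, 30.1 and 20.8 CPM, without overlap (adjusted p-value 0.268). Of the 6 members below 0, the interferon targets Ifit1, Ifit2, Ifit3 and Oasl2 overlapped and had log2 differences of −0.38, −0.82, −0.16 and −0.22. B2m, the light chain of class I molecules, overlapped at 17991, 12087 and 6896 CPM against 11303, 2542 and 5878 CPM. The interferon-inducible gene Ifi203 was not on this list. It lay lower without overlap, with a log2 difference of −3.07 ± 0.62 (SE, adjusted p-value 0.138).

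Inflammatory and immediate early genes were mostly higher in the libraries labelled Hdac2 ECKO, but none was called. Of 27 tested inflammatory adhesion and cytokine genes, 7 were nominally higher and 0 nominally lower, beside 4.6% and 3.32% of all genes. Without overlap 10 lay higher and 1 lower, beside 7.21% and 6.55% of all genes. The median log2 difference was 0.61, and 0.38 without Hdac2 ECKO replicate 3. Icam2, an endothelial ligand for leukocyte integrins, stood at 161, 166 and 197 CPM against 67.9, 45.8 and 44.7 CPM (adjusted p-value 0.138). Nfkbia, the inhibitor that NF-kB induces as feedback, stood at 824, 754 and 667 CPM against 299, 302 and 256 CPM (0.228). Cxcl1, a neutrophil chemokine, stood at 76.2, 65.7 and 49.8 CPM against 10.6, 0.546 and 17.2 CPM (0.395). The selectin genes Sele and Selp were low and overlapped. Birc3, an NF-kB target that inhibits apoptosis, was the 1 gene that lay lower without overlap, at 26.0, 18.6 and 27.5 CPM against 33.4, 49.0 and 30.1 CPM.

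Of 25 tested immediate early genes, which cells switch on within minutes of a stimulus, 11 were nominally higher and 0 nominally lower. Among all genes the shares were 4.6% and 3.32%. Without overlap 12 lay higher and 0 lower, beside 7.21% and 6.55% of all genes. The list median was 0.60. Ier3 stood at 263, 329 and 180 CPM against 124, 54.6 and 51.7 CPM (adjusted p-value 0.246), and Nr4a1, an orphan nuclear receptor, at 248, 182 and 166 CPM against 84.3, 84.1 and 58.3 CPM (0.266). Fosl2, Junb, Egr3, Nr4a2, Nr4a3, Atf3, Maff and Zfp36 also lay higher without overlap. Fos, the best known of the class, overlapped at 1390, 1143 and 1052 CPM against 1262, 811 and 1222 CPM. Egr1 and Jun overlapped as well.

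Arterial and venous genes were each higher on balance. Of 15 arterial genes tested, 1 was called (Gkn3), beside 0.101% of all genes. Of the 15, 4 were nominally higher and 0 nominally lower, beside 4.6% and 3.32% of all genes. The list median was 0.65, and it was 1.00 without Ezh2 ECKO replicate 1 and 0.38 without Hdac2 ECKO replicate 3. Mgp, a matrix inhibitor of calcification and arterial marker, stood at 293, 332 and 213 CPM against 97.4, 57.8 and 86.8 CPM (adjusted p-value 0.121), and Alpl, alkaline phosphatase of arterioles and capillaries, at 101, 74.3 and 68.3 CPM against 21.9, 25.5 and 16.8 CPM (0.169). Sox17, an arterial transcription factor that also answers to Wnt, lay lower without overlap, at 176, 173 and 189 CPM against 246, 211 and 235 CPM, while Efnb2 and Jag1 overlapped. Of 14 venous genes, 0 were called, 4 were nominally higher and 0 nominally lower, beside 4.6% and 3.32% of all genes. Their median was 0.51, and 0.90 without Ezh2 ECKO replicate 1. Vwf, which anchors platelets, stood at 213, 251 and 206 CPM against 146, 73.1 and 109 CPM (0.456). Icam1, an adhesion molecule for leukocytes, stood at 70.0, 26.7 and 38.3 CPM against 19.3, 11.7 and 14.7 CPM (0.457). Among 24 general endothelial markers the median was −0.03, from −0.19 to 0.14 with a library left out and with the other sign in 4 of 21 alternatives, and with 3 nominally higher and 1 nominally lower.

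The Ly6 and GPI-anchored surface genes had the highest median among the lists plotted, 1.10 over 10 tested genes. Of these, 0 were called and 6 were nominally higher, beside 4.6% of all genes. Ly6c2 stood at 1087, 1189 and 636 CPM against 516, 374 and 446 CPM (adjusted p-value 0.429), and Ly6e at 2762, 2654 and 2495 CPM against 1523, 1097 and 1118 CPM (0.456). Ly6a and Ly6c1, abundant markers of brain endothelium, lay at 7192, 7561 and 4324 CPM against 3632, 2230 and 2880 CPM, and at 7750, 8826 and 4965 CPM against 4074, 2785 and 3650 CPM. Members of this cluster are similar in sequence and may share reads.

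Metabolic and redox genes leaned the same way. Of 16 tested glycolytic genes, 0 were called and 5 were nominally higher and 0 nominally lower, beside 4.6% and 3.32% of all genes. Their median was 0.58. Tpi1, triosephosphate isomerase, stood at 88.7, 119 and 108 CPM against 25.6, 12.5 and 39.7 CPM (adjusted p-value 0.204), and Aldoa, aldolase A, at 103, 156 and 138 CPM against 76.7, 19.4 and 38.2 CPM (0.386). Of 19 oxidative stress genes, 0 were called, 6 were nominally higher and 0 nominally lower, beside 4.6% and 3.32% of all genes. The log2 difference was above 0 in 15 of the 19, beside 45.2% of all genes. The list median was 0.68. It was 1.10 without Ezh2 ECKO replicate 1, 0.45 without Hdac2 ECKO replicate 1 and 1.13 without Hdac2 ECKO replicate 3. After the length trend of each library was removed it was 0.48. With counts on olfactory and vomeronasal receptors as a covariate it was 0.27. With library totals in place of TMM scaling it was 0.26, beside −0.43 for all genes. Without overlap 4 genes lay higher and 1 lower, beside 7.21% and 6.55% of all genes. The 1 was Cat, at 70.7, 30.3 and 26.2 CPM against 82.3, 72.2 and 87.7 CPM (adjusted p-value 0.632). Ftl1, the light chain of the iron store ferritin, stood at 1476, 1665 and 1118 CPM against 479, 464 and 369 CPM (0.168). Gpx4, which detoxifies lipid peroxides, overlapped at 1286, 1478 and 243 CPM against 261, 75.3 and 155 CPM (0.244).

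Wnt genes and barrier transporters lay on the other side, but not every list of barrier genes did. Of 27 tested Wnt and beta-catenin genes, 0 were called, 1 was nominally higher and 7 nominally lower, beside 4.6% and 3.32% of all genes. Without overlap 10 lay lower, beside 6.55% of all genes. The list median of the log2 difference was −0.41, and −0.66 without Ezh2 ECKO replicate 2. Apc, a scaffold of the complex that marks beta-catenin for destruction, stood at 34.8, 33.3 and 37.1 CPM against 90.9, 114 and 136 CPM, or −1.70 ± 0.35 (SE, adjusted p-value 0.169). Ctnnb1, beta-catenin itself, stood at 1355, 1118 and 1100 CPM against 1779, 1371 and 1992 CPM, without overlap (0.752). Among receptors, Fzd6 stood at 136, 200 and 172 CPM against 282, 432 and 256 CPM (0.504), and Tspan12, a partner of the Norrin receptor, at 150, 166 and 236 CPM against 356, 244 and 421 CPM (0.534). Znrf3, a feedback ligase that removes Wnt receptors, stood at 7.66, 19.0 and 18.7 CPM against 25.3, 42.0 and 57.3 CPM (0.518). Lef1 and Axin2, common readouts of the pathway, overlapped between the groups. The gene with the smallest p-value in the other direction, Dkk2, a secreted modulator of Wnt receptors, was at 16.7, 0.0570 and 11.6 CPM against 0.357, 0.697 and 0.384 CPM and overlapped.

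Of 26 barrier transporters and pumps, all tested, 0 were called, 1 was nominally higher and 4 nominally lower. Among all genes the shares were 4.6% and 3.32%. The log2 difference was above 0 in 2 of the 26, beside 45.2% of all genes. The list median was −0.45, and −0.24 without Ezh2 ECKO replicate 1. Slc39a8, a zinc and manganese importer, stood at 99.0, 119 and 106 CPM against 214, 156 and 239 CPM (adjusted p-value 0.498). Slc40a1, the iron exporter ferroportin, stood at 295, 341 and 270 CPM against 602, 478 and 578 CPM (0.503), and Mfsd2a, a lipid transporter that restrains transcytosis, at 65.8, 71.2 and 103 CPM against 205, 104 and 176 CPM (0.501). Bsg, a chaperone of lactate transporters, went the other way at 9606, 11729 and 6057 CPM against 3662, 2649 and 3095 CPM (0.327). The glucose transporter gene Slc2a1 overlapped at 866, 733 and 603 CPM against 892, 719 and 864 CPM, as did the efflux pump genes Abcb1a and Abcg2.

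Of 17 tested junction genes, 0 were called and 0 were nominally different, with a median of −0.26, which was 0.058 without Ezh2 ECKO replicate 1 and −0.12 without Hdac2 ECKO replicate 3. Cldn5, the main claudin of brain endothelium, overlapped at 1134, 1010 and 482 CPM against 757, 372 and 547 CPM. Tjp1, the tight junction scaffold ZO-1, had the smallest p-value, at 417, 402 and 403 CPM against 650, 609 and 644 CPM, or −0.64 ± 0.31 (SE, adjusted p-value 0.646). Of 15 genes of transcytosis, caveolae and fenestration, all tested, 0 were called, 2 were nominally higher and 0 nominally lower. Among all genes the shares were 4.6% and 3.32%. The log2 difference was above 0 in 11 of the 15, beside 45.2% of all genes. The list median was 0.18, and it was 0.41 without Ezh2 ECKO replicate 1 and −0.057 without Hdac2 ECKO replicate 1. Cavin3, a coat protein of caveolae, stood at 55.6, 113 and 59.3 CPM against 40.2, 31.3 and 28.7 CPM (0.498), and Cltb, a clathrin light chain, at 75.9, 72.0 and 60.1 CPM against 32.7, 19.04 and 42.2 CPM (0.504), both without overlap. Of 21 basement membrane genes, 0 were called, 2 were nominally lower and 7 lay lower without overlap, beside 3.32% and 6.55% of all genes. Their median was −0.29, beside −0.11 for all genes. After the length trend of each library was removed it was −0.13, beside −0.09 for all genes. Nid1, which links laminin to collagen IV, stood at 34.0, 18.8 and 28.1 CPM against 66.0, 54.1 and 63.2 CPM (0.499), and Sparc, a collagen-binding matrix protein, at 865, 379 and 479 CPM against 1523, 960 and 1356 CPM (0.483).

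**Figure D4:**
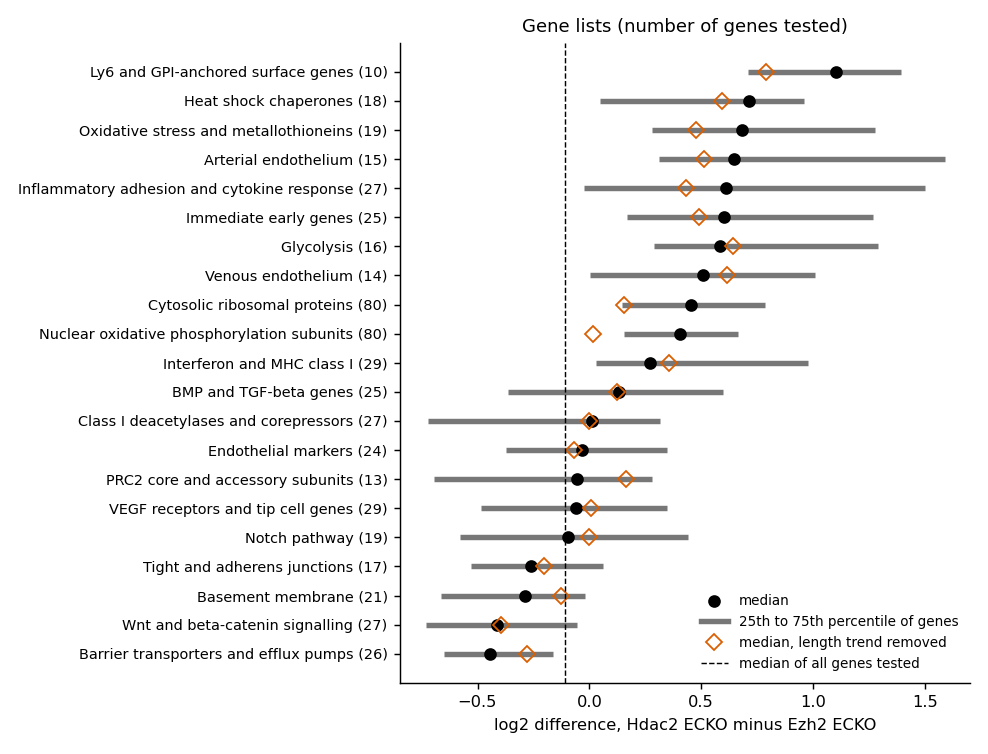
Median log2 difference (Hdac2 ECKO minus Ezh2 ECKO) over the tested genes of 21 lists, with the 25th to 75th percentile of their genes as grey bars, the number tested in parentheses, and the median after the length trend of each library was removed as open diamonds. The dashed line is the median of all genes, −0.11. Ly6, heat shock and oxidative stress genes lie highest and barrier transporters lowest. The ribosomal and oxidative phosphorylation lists move toward 0 once length is taken out. Other lists shift as well, among them Ly6, barrier transporters and basement membrane toward 0 and PRC2 from −0.05 to 0.16.

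Genes of the 2 deleted complexes showed little. Of all genes tested, 3.32% were nominally lower. Of 13 tested PRC2 genes, 0 were called and 1 was nominally lower, with a median log2 difference of −0.05 that ran from −0.37 to 0.12 with a library left out and took the other sign in 6 of 21 alternatives. Suz12, the core subunit that holds PRC2 together, stood at 38.6, 62.4 and 74.5 CPM against 86.5, 195 and 83.1 CPM (adjusted p-value 0.563). Ezh1, the other methyltransferase of the complex, overlapped at 31.0, 27.1 and 24.6 CPM against 33.9, 29.8 and 8.39 CPM, as did Eed at 80.5, 83.0 and 120 CPM against 123, 43.5 and 54.3 CPM. Of 27 tested class I deacetylase and corepressor genes, 0 were called and 2 were nominally lower, Hdac2 and Tbl1xr1, with a median of 0.01 that ran from −0.12 to 0.038 and took the other sign in 11 of 21. Hdac1, the closest relative of Hdac2, overlapped at 21.3, 30.6 and 54.0 CPM against 20.05, 42.7 and 50.8 CPM. Of 40 developmental Polycomb target genes 8 passed the filter on low counts, none nominally different. Their median log2 difference was −0.66, with 6 of the 8 below 0. Without overlap 2 lay lower, Tbx15 and Tbx3, beside 6.55% of all genes. The median ran from −0.80 to −0.11 with a library left out. It was −0.0029 with the receptor background as a covariate and took the other sign in 2 of 21 alternatives. Of 39 Hox genes 0 passed the filter. A gene that is silent in all 6 libraries could not be tested, so no statement on these targets as a class is possible at this depth.

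With the 6 libraries, TMM scaling, the filter on low counts and no length correction, edgeR called no gene lower in the libraries labelled Hdac2 ECKO. Other edgeR fits did: Ifi203 with no filter (log2 difference −2.98, adjusted p-value 0.0192), Mipol1 with all 18 libraries (−3.63, 0.0300), and Gm10320 (−3.17, 0.00856) and Ly96 (−2.15, 0.0272) with the length trend removed. The 10 with the smallest p-values, among genes without overlap and with an average of 50 counts or more in either group, had adjusted p-values from 0.0776 to 0.266. Nup153 (chromosome 13, 46679905 to 46727940, minus strand), a nuclear pore protein, stood at 20.6, 27.0 and 25.5 CPM against 110, 107 and 84.7 CPM, a log2 difference of −2.05 ± 0.37 (SE, adjusted p-value 0.0776). Nampt, the rate-limiting enzyme of NAD salvage, stood at 179, 253 and 173 CPM against 422, 565 and 601 CPM (0.266). Tent2, a cytoplasmic poly(A) polymerase, stood at 34.7, 44.0 and 42.1 CPM against 116, 116 and 102 CPM (0.229). Ifi203, an interferon-inducible gene in a cluster of near-identical relatives and therefore uncertain, stood at 10.9, 4.05 and 20.3 CPM against 82.2, 164 and 50.3 CPM (0.138). Kcnj14, a potassium channel gene, had 0 counts in all 3 libraries labelled Hdac2 ECKO and 3.01, 0.546 and 2.08 CPM in the others (0.244). Lmbr1, Btbd10, Mipol1, Gm10320 and Apc completed the 10.

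Gene length moved with these differences. Across the 7556 genes of at least 10 CPM on average, the Spearman correlation of the log2 difference with feature length was −0.37, a description across genes that share 6 libraries. Short genes were higher and long genes lower under the Hdac2 ECKO label. In single libraries, the correlation of length with the deviation from the mean of the 6 was −0.347, −0.386 and 0.0563 for Hdac2 ECKO and 0.0249, 0.377 and 0.107 for Ezh2 ECKO, so Hdac2 ECKO replicates 1 and 2 and Ezh2 ECKO replicate 2 stood apart. The correlation with GC content was 0.295, 0.242 and −0.0708 against −0.0187, −0.220 and −0.145. Sorted endothelium should not express olfactory and vomeronasal receptor genes. Their counts were 198, 324 and 637 CPM against 267, 2075 and 598 CPM, highest in Ezh2 ECKO replicate 2. Unlike the gene levels above, these values were taken on library totals without TMM scaling and with globin counts included. The TMM factors were 0.729, 0.821 and 1.17 against 1.03, 1.26 and 1.10. With TMM scaling Hdac2 ECKO replicates 1 and 2 would therefore stand higher and the rest lower.

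**Figure D5:**
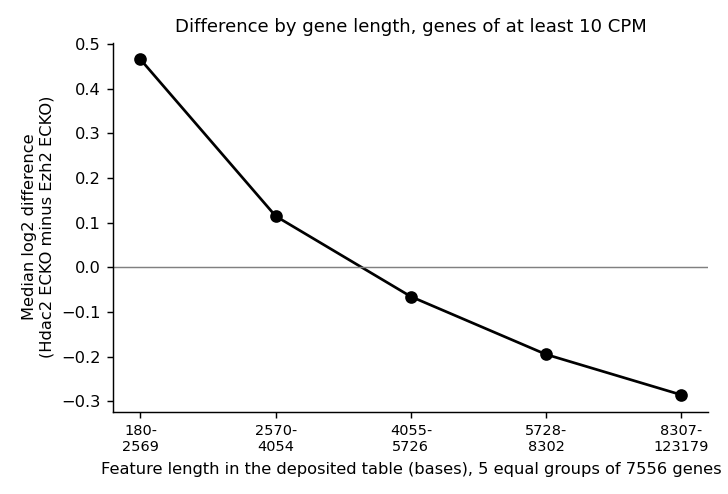
Median log2 difference (Hdac2 ECKO minus Ezh2 ECKO) in 5 equal groups of 7556 genes ordered by feature length in bases. The median falls from 0.47 in the shortest group to −0.29 in the longest.

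The short cytosolic ribosomal protein genes (80 tested, 71 with a log2 difference above 0) had a median of 0.45, which was 0.16 after the length trend of each library was removed, 0.78 and 0.14 without Ezh2 ECKO replicates 1 and 2, 0.16 without Hdac2 ECKO replicate 1 and −0.15 with the receptor background as a covariate. The nuclear genes of oxidative phosphorylation (80 tested, 67 above 0) had a median of 0.41, which was 0.015 after it, 0.69 and 0.13 without Ezh2 ECKO replicates 1 and 2, 0.12 and 0.66 without Hdac2 ECKO replicates 1 and 3, and −0.061 with the background covariate. With length removed the medians were 0.49 for immediate early genes, 0.59 for heat shock, 0.43 for inflammatory, 0.79 for Ly6, −0.39 for Wnt and −0.28 for barrier transporter genes. In that fit 10 of the 14 calls remained, Gm20481, Gkn3 and Sncg were among those that did not, and 2 genes were called lower, Gm10320 and Ly96. GC correction in place of length correction lowered the immediate early median from 0.60 to 0.24 and the glycolytic median from 0.58 to 0.36. The medians were then 0.64 for heat shock, 0.57 for inflammatory, 1.09 for Ly6, −0.54 for Wnt and −0.45 for barrier transporter genes. With the receptor background of each library as a covariate, only the 4 globin genes were called. In that fit the log2 difference of Cd9 went from 2.12 to 2.14, Hspa1a from 3.23 to 3.20, Gkn3 from 2.30 to 2.11 and Sncg from 2.68 to 2.41. Gm10260 went from 4.00 to 3.24, Bst2 from 2.77 to 2.28, Hspa1b from 3.35 to 3.04 and Gm20481 from 3.90 to 3.72. The adjusted p-values of these genes there were from 0.0638 to 0.322.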

How the data were processed

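The authors' deposited table gave counts per gene for 21638 genes and feature lengths, with no column left unassigned (0). Its title calls the counts normalized, but they were whole numbers, and between 82.1% and 89.4% of those from 1 to 20 were even, so they were used as unscaled. Per the submitters' processing notes, FastQC, cutadapt, STAR, featureCounts and DESeq2 were used with mm10. The strand setting was not given in the sources used here. The 6 libraries alone were fitted with edgeR 4.0.16 (R 4.3.3; TMM, quasi-likelihood F-test), on genes that reached 10 counts in 3 or more of them, with Benjamini-Hochberg adjustment over 13885 genes, called under 0.05. SE is the log2 difference divided by the square root of F. A floor of 3 counts equals 0.0764 to 0.0912 CPM, for counting error only. DESeq2 1.42.0 and limma 3.58.1 (voom) were alternatives. Named were the deleted, globin and called genes, the 10 higher and 10 lower of smallest p without overlap, and up to 2 per list; the members and lists were chosen with earlier results of these data known. Of the 14 calls, 2 are counted but not reported here.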

Additional observations from a re-analysis of the deposited data

How the results depend on the processing

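The count of 14 called genes moved to 309 with DESeq2 (219 higher, 90 lower), 8 with voom and sample weights, 6 with library totals in place of TMM scaling, 4 with the receptor background as a covariate and 0 with globin genes not tested. Leaving out 1 library at a time gave 0 to 21. It stayed within 1.5 times of 14 with RLE scaling (14), robust estimation (13), halved counts (12), a stricter filter (10), no filter (19), GC correction (13), all 18 libraries in the fit (21, of which 11 shared) and length correction (12). The length correction, and leaving globins out of totals while testing them, were chosen after seeing the data. The replicate block, with the shared replicate number as a factor, gave 13 calls, 12 of them shared, losing Gm20481 and Sncg. Same-numbered libraries did not deviate together (r from −0.054 to 0.116, against −0.159 to 0.168 for other pairings). No pairing by number was seen in these values, but so few pairs cannot exclude it. Of 1972 comparisons of named-gene results with alternatives, 12 changed sign, in 4 genes that were not called. Acta2 (0.66) was −1.17 with the background covariate, −0.97 with the block, −1.30 with voom and ranged from −2.50 (without Hdac2 ECKO replicate 1) to 1.21 with a library left out. Mylk (−0.21) was 0.048 with length correction and ranged from −1.005 to 0.74, being 0.74 without Ezh2 ECKO replicate 3 and 0.20 without Hdac2 ECKO replicate 3. Mbp (−1.98) was 0.15 with the block and ranged from −2.52 to 1.70 (without Ezh2 ECKO replicate 3). Itgb3 (−0.58) was 0.20 with the block, 0.44 with voom and ranged from −1.26 to 1.01 (without Ezh2 ECKO replicate 3). The cause of these changes was not tested. List medians kept their sign in all alternatives for the heat shock, immediate early, inflammatory, Ly6, arterial, venous, glycolytic, oxidative stress, Wnt, barrier transporter and basement membrane lists. With the background covariate the ribosomal median was −0.15 and the oxidative phosphorylation median −0.061. Depth limits genes near 0.0764 to 0.0912 CPM, where 3 counts lie.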

Other observations

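S100a6, a calcium-binding protein that is not on any of the lists, just missed the threshold and was called under several alternatives. It stood at 292, 94.2 and 62.7 CPM with Hdac2 deletion on the label, against 21.5, 8.61 and 5.54 CPM with Ezh2 deletion, a log2 difference of 3.65 ± 0.65 (SE, adjusted p-value 0.0734 in edgeR's quasi-likelihood test). It was called with no filter on low counts, with the replicate block, with all 18 libraries in the fit, without Ezh2 ECKO replicate 1 and without Hdac2 ECKO replicate 3. S100a6 was chosen here after its values were seen.

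Lrrn3, which encodes a leucine-rich repeat membrane protein, split the Ezh2 ECKO libraries. It stood at 146, 109 and 124 CPM with Hdac2 deletion on the label, against 5.20, 2.97 and 124 CPM with Ezh2 deletion, so replicate 3 lay inside the range of the other group. Tent5c, a poly(A) polymerase gene, stood at 40.5, 26.8 and 4.84 CPM against 0, 0.788 and 0.164 CPM (adjusted p-value 0.204).

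The called genes were placed among the other 12 libraries of the series as a description, with no test. In 6 of the 14 (the 4 globin genes, Cd9 and Sncg) all libraries labelled Ezh2 ECKO lay below the lowest of those 12 while the Hdac2 ECKO libraries reached into their range. In 7 others both groups reached into the range of the 12. For Cd9 the median of the 12 was 391 CPM, and for Hspa1a it was 22.5 CPM. Among the genes that were not called, Tent2 lay below all 12 in the Hdac2 ECKO libraries and above all 12 in the Ezh2 ECKO libraries, and Nr4a1 lay above all 12 in the Hdac2 ECKO libraries with the Ezh2 ECKO libraries within their range.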
